A study of Mus musculus with 6 samples.

Results

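The replication-dependent histone genes were examined in dendritic cells grown from the bone marrow of transplanted mice. Members were all probe sets to which the platform annotation gives a gene named H1f1 to H1f6, or H2ac, H2bc, H3c or H4c with a number, the newer names of the Hist1h and Hist2h genes. This gave 53 of the 35556 probe sets of the table, naming 63 of the 21335 genes that the annotation names: 6 of H1, 17 of H2A, 16 of H2B, 12 of H3 and 12 of H4. Of the 53 probe sets, 27 named 1 gene and 26 named several. The linker histone genes H1f7, H1f8 and H1f10 carry no older Hist name and were not counted as members. The older Hist3h and Hist4h names belong here to H2aw (Hist3h2a), H2bu2 (Hist3h2ba), the pseudogene H2bu1-ps and H4f16 (Hist4h4), whose newer names fall outside that pattern, so no Hist3h or Hist4h gene is a member. Their values are given after those of the members. The names H2af-ps2 and H4bc24, which also have older Hist1h names, occur only on member probe sets and are not among the 63 genes.

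Nucleosomes are built from the core histones H2A, H2B, H3 and H4, and the linker histone H1 sits on the DNA between them. The replication-dependent genes lie in clusters, are transcribed mainly in S phase, when new DNA has to be packaged, and most of their mRNAs end in a stem-loop in place of a poly(A) tail. Stem-loop binding protein and the U7 small nuclear ribonucleoprotein form this end, and the mRNAs are degraded when DNA synthesis stops. Variant histones such as H2A.Z and H3.3 are made outside S phase from separate, polyadenylated mRNAs.

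The array comparison addresses whether marrow from donors exposed to ultraviolet (UV) radiation gives rise to altered dendritic cells. In the UV-donor group, female C57BL/6J mice had received 2000000 marrow cells from a B6.SJL-Ptprca donor of 6 to 10 weeks whose shaved back had received broadband UV of at most 8 kJ/m2. In the naive-donor group, the 2000000 cells came from an untreated donor of the same congenic strain, which carries the CD45.1 antigen while recipients carry CD45.2. The age of the naive donors is not given. In both groups, recipient marrow then grew for 5 days in 10 ng/ml GM-CSF plus 10 ng/ml IL-4, and cells bearing CD11c were enriched with magnetic beads to above 95%. RNA of 3 preparations per group was run on 6 arrays. The labels do not say whether the preparations came from separate recipients, what share of the cells was of donor origin, or whether host marrow had been removed before the injection. P-values therefore measure the spread between preparations, which may be technical. The CD11c gene Itgax had log2 signals of 13.71 to 13.75 in UV-donor preparations and 13.75 to 13.79 in naive-donor preparations.

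Motifs of histone promoters were looked up in RefSeq windows (assembly GRCm38.p6) running from 250 bases before to 50 bases after each gene start. Windows were found for 58 of the 63 genes, 59 windows in all. The 6 windows below were chosen to show members on which the comparison turns: an H1 pair whose values went opposite ways, the H2A and H2B genes with the largest differences, and a pair of H4 genes. Capitals mark the motifs searched on either strand. The octamer ATTTGCAT is bound by OCT1. The TATA box was searched as TATAAA. The CCAAT box was searched by those letters. The H4 element, a part of the site bound by HINFP, was searched as GGTCCG. This element was added to the search after the H4 windows had been read. Where 2 motifs overlap, 1 run of capitals covers both.
H1f5: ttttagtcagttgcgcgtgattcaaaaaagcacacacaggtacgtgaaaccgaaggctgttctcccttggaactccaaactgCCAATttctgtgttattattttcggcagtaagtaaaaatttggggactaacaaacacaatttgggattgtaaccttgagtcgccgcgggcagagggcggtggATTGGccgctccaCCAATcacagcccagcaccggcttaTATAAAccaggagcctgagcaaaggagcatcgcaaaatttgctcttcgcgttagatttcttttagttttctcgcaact
H1f2: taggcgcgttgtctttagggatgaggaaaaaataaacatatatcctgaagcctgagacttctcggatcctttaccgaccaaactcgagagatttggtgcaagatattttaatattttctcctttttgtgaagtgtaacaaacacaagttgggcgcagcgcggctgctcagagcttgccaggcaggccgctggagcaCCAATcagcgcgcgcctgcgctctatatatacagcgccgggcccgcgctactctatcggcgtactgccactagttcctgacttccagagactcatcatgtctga
H2ac4: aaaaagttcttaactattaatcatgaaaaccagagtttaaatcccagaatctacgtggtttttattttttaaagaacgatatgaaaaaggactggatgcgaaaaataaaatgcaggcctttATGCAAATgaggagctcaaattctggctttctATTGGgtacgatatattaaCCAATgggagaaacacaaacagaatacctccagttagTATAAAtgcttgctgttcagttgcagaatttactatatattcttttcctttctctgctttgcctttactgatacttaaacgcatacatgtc
H2bc3: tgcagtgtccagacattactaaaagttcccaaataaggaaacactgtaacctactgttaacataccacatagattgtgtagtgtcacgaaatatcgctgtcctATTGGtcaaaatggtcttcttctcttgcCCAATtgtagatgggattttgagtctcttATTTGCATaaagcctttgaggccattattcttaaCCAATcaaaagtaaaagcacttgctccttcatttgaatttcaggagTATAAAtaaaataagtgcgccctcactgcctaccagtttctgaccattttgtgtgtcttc
H4c6: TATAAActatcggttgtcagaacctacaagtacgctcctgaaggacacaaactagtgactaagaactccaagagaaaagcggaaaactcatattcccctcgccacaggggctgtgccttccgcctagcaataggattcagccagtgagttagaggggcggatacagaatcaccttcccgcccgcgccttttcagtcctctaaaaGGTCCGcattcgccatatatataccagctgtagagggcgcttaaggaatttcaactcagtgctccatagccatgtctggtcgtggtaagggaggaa
H4c4: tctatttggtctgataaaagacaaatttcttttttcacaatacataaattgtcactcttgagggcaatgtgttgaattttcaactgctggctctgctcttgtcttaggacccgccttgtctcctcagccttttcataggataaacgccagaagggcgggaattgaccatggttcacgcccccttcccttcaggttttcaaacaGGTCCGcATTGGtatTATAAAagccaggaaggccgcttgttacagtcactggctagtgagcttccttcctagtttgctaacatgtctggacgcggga

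The H1f5 window is chr13:21780576-21780875 (minus strand) and that of H1f2 is chr13:23738557-23738856 (plus strand). Those of H2ac4 and H2bc3 are chr13:23750838-23751137 (plus strand) and chr13:23746484-23746783 (plus strand). The H4 windows are chr13:23551619-23551918 (minus strand) for H4c6 and chr13:23581318-23581617 (plus strand) for H4c4. In H4c6 and H4c4 the GGTCCG element starts 46 and 47 bases before the gene start, and the TATAAA of H4c6 lies at the far end of its window, 250 bases before. H1f2 holds a CCAAT and no TATAAA within its window, while H1f5 holds 3 CCAAT and a TATAAA 28 bases before its start. The search for TATAAA does not match other TATA-like letters. The letters tatatata stand after the CCAAT of H1f2 and after the GGTCCG of H4c6, so neither window lacks such a stretch near the gene start.

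The octamer was found in 6 of 17 H2A and 7 of 15 H2B windows and in 0 of 27 windows of the other classes, against 1.74% of the 32851 windows of all genes. Windows of some neighbouring H2A and H2B genes overlap, so a motif can be counted in both. The octamers of H2ac1 and H2bc1 are the same site, as are those of H2ac8 and H2bc8 and those of H2ac12 and H2bc12. CCAAT was present in every H1, H2A, H2B and H3 window and in 3 of 11 H4 windows, against 37.4% of all windows. GGTCCG stood in 10 of 11 H4 windows, in 1 H2B and in 1 H3 window, against 8.25% of all windows. TATAAA was in 34 of 59 member windows (57.6%), against 13.6% of all windows. A match of letters describes the window and does not show that a factor was bound.

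**Figure D1:**
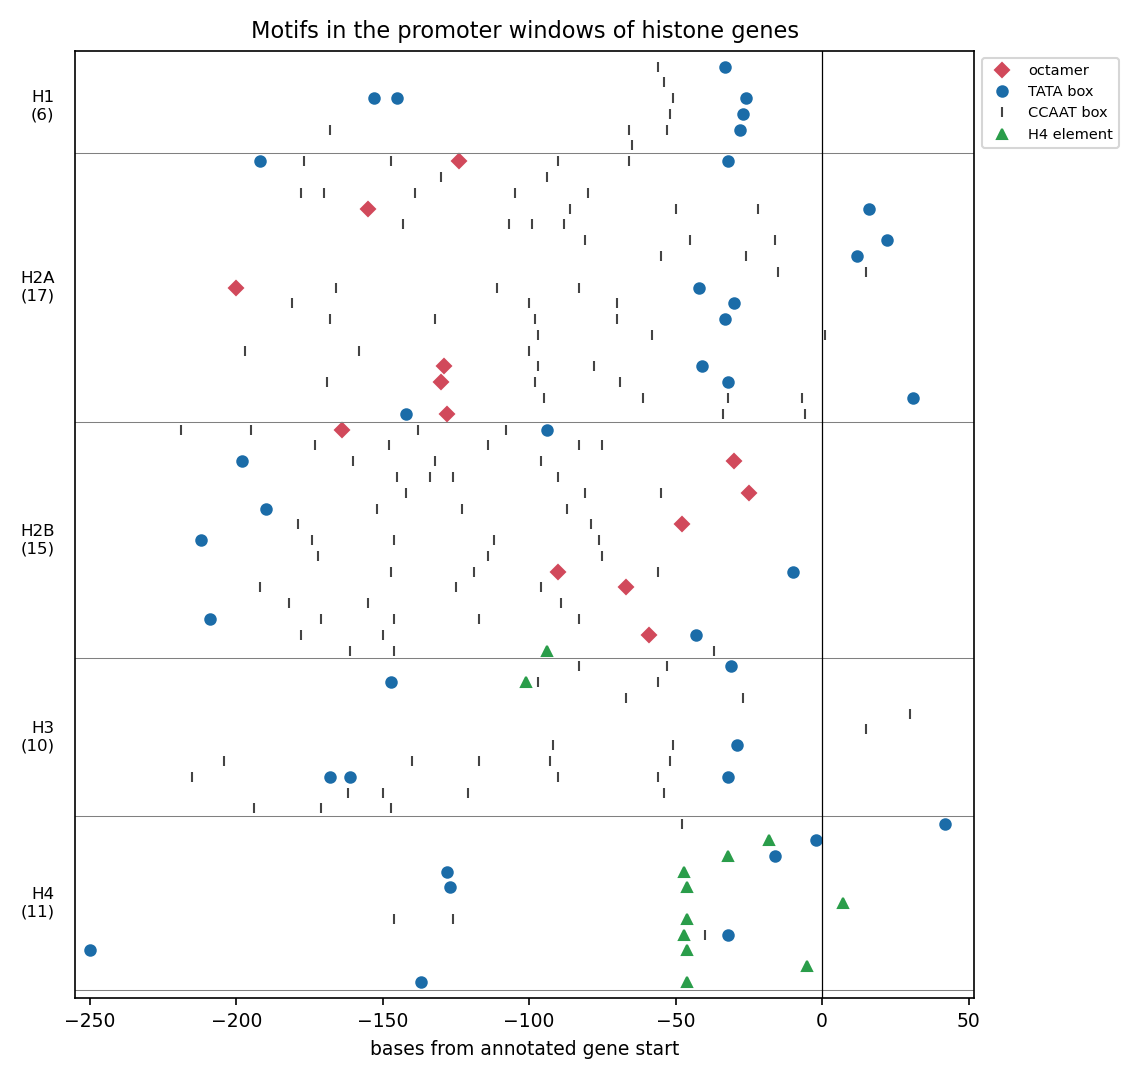
Positions of the searched motifs in the 59 promoter windows of histone genes. Each row is a window, grouped by class with the number of windows, and the x axis gives bases from the annotated gene start. Red diamonds (octamer) lie only in the H2A and H2B rows, and 10 of 11 H4 rows hold a green triangle (H4 element).

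Most histone probe sets had a higher mean signal in UV-donor preparations, in every class but H1, and no histone probe set passed the test. Of the 48 members above the filter on dim signal, 45 had a higher mean in the UV-donor group and 3 a lower one, where 51.2% of all tested probe sets had a higher mean. Their median log2 difference was 0.29, or 1.22-fold, against 0.003 for all 16387 tested probe sets, and it was 0.18 without UV-donor replicate 1. The differences ran from -0.12 for H1f6 to 0.72 for H2ac4. By class the median was 0.21 for H1, 0.35 for H2A, 0.26 for H2B, 0.35 for H3 and 0.20 for H4, and 0.26 for 3 probe sets that mix classes. Without UV-donor replicate 1 these medians were 0.13 for H1, 0.20 for H2A, 0.17 for H2B, 0.21 for H3, 0.14 for H4 and 0.16 for the mixed probe sets. With the dim H1f3 included, the H1 median was 0.098.

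None of the 48 members was called by limma at an adjusted p under 0.05 in either direction, and their adjusted p-values ran from 0.174 to 0.718. Over all tested probe sets 17 were called higher, or 0.104%, and 0 lower. At an unadjusted p under 0.05, limma found 40 of the 48 members higher, where the share over all tested probe sets was 9.41%, and 0 lower, where that share was 5.55%. The groups did not overlap, with all UV-donor arrays above all naive-donor arrays, in 28 of the 48, against 12.2% of all tested probe sets, and lay the other way in 1 (H1f2), against 9.16%. Of the 28, 17 were probe sets that name several genes. The members are not independent of each other: 10 H3 probe sets name the same 12 genes, and 4 probe sets form 2 pairs with identical values. When probe sets that name the same genes were averaged, a step chosen after the data were seen, 22 of 30 remaining members were higher at an unadjusted p under 0.05, against 9.31% of all tested.

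**Figure D2:**
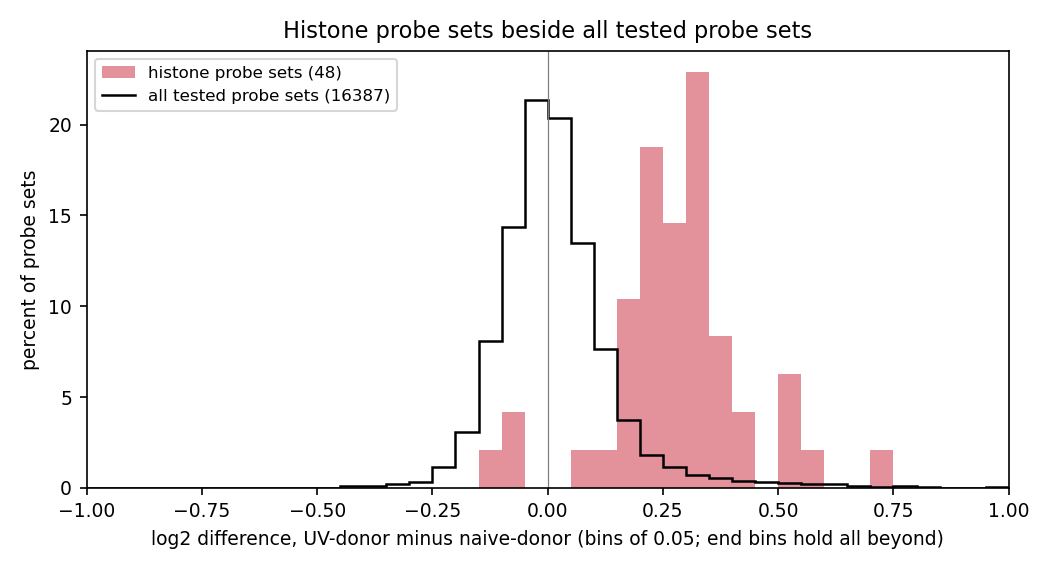
Distribution of log2 differences, UV-donor minus naive-donor, for the 48 tested histone probe sets (red, filled) and all 16387 tested probe sets (black line), as percent of probe sets in bins of 0.05. The histone probe sets have a median of 0.29 and all tested probe sets one of 0.003.

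Replicate 1 of each group stood at the outer end. UV-donor replicate 1 had the highest signal of all 6 arrays in 44 of the 48 tested members, against 21.2% of all tested probe sets. Naive-donor replicate 1 had the lowest in 42, for which the share over all tested probe sets was not computed. As the median over members of the log2 signal minus the naive-donor mean, UV-donor replicates 1, 2 and 3 stood at 0.50, 0.13 and 0.23, and naive-donor replicates 1, 2 and 3 at -0.12, 0.10 and 0.004. The naive-donor replicate 2 thus lay just below the UV-donor replicate 2.

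The number of members with a small p depended on single arrays more than the direction of the differences did. Without naive-donor replicate 1, 7 of the 48 members were higher at an unadjusted p under 0.05 against 6.52% of all tested. Without UV-donor replicate 1 the count was 20 (41.7%, against 7.67%), and without naive-donor replicate 3 it was 22 (45.8%, against 7.99%). Without both UV-donor replicate 1 and naive-donor replicate 1, a choice made after seeing the data, it was 3 (6.25%, against 5.50%), and the median difference was 0.13 with 42 members higher in value. With 1 array left out at a time, 44 or 45 members had a higher mean in the UV-donor group. The median difference was then 0.23 without naive-donor replicate 1 and 0.30 without naive-donor replicate 3. The interquartile range of the arrays was wider in the UV-donor group (3.71 to 3.75) than in the naive-donor group (3.61 to 3.68). After quantile normalization, which equalises it, 39 members were higher at an unadjusted p under 0.05, against 7.73% of all tested.

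**Figure D3:**
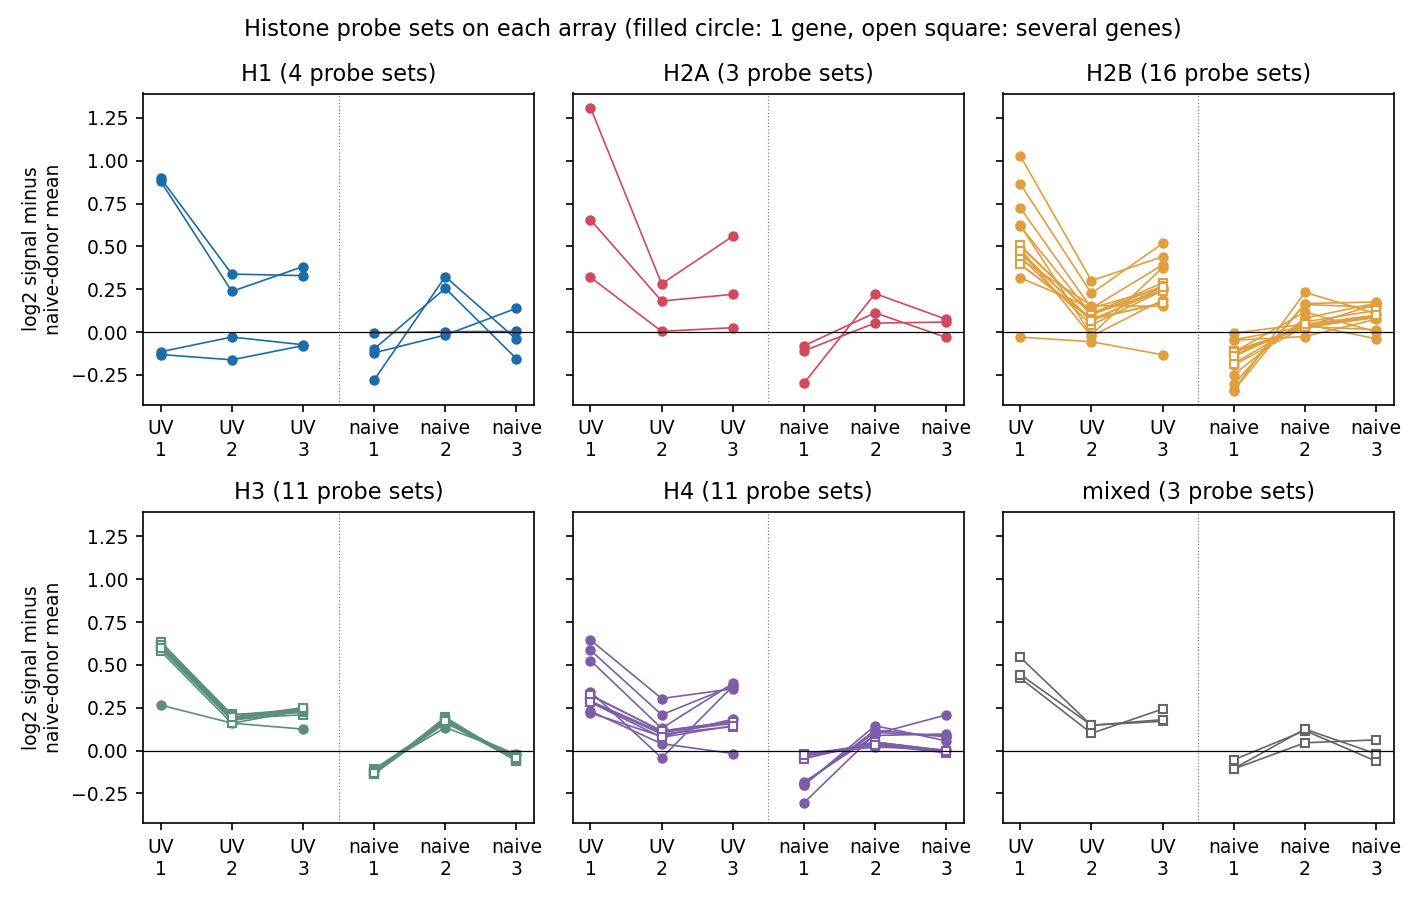
Log2 signal of each tested histone probe set minus its naive-donor mean, by array (x axis: 3 UV-donor arrays, then 3 naive-donor arrays), in 1 panel per class. Lines join the values of a probe set within a group and imply no order of arrays. UV-donor replicate 1 is the highest array in 44 of the 48 probe sets.

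Among the linker histones, the values of 2 genes lay higher and those of 2 lower. H1f5 (Hist1h1b) had log2 signals of 11.45, 10.89 and 10.88 in UV-donor preparations, against 10.27, 10.87 and 10.50 in naive-donor preparations. Every UV-donor array was above every naive-donor array, though the closest pair differed by less than the spread within either group. The difference was 0.52 (SE 0.19, 95% interval 0.09 to 0.95, limma adjusted p = 0.263).

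H1f1 (Hist1h1a) had 10.86, 10.21 and 10.36 in UV-donor preparations, against 9.88, 10.23 and 9.82 in naive-donor preparations. Here naive-donor replicate 2 lay inside the UV-donor range, and the difference of 0.50 (SE 0.17) had a limma adjusted p of 0.247. H1f2 (Hist1h1c) had 12.81, 12.90 and 12.85 in UV-donor preparations, against 12.92, 12.93 and 12.93 in naive-donor preparations. All UV-donor arrays were below all naive-donor arrays, and the means lay -0.073 apart (95% interval from -0.18 to 0.030, limma adjusted p = 0.472). In human cells the H1f2 orthologue is among the histone genes that also make polyadenylated mRNA.

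Within an array, the log2 signal of H1f5 minus that of H1f2 averaged -1.78 ± 0.36 in UV-donor and -2.38 ± 0.30 in naive-donor preparations (SD, n = 3 each). The groups did not overlap (exact permutation test, two-sided p = 0.1, the smallest p that 3 arrays against 3 can give). This outcome was fixed in advance and is no support. Every UV-donor array was above every naive-donor array for H1f5 and below it for H1f2. For H1f1 minus H1f2 the groups did not overlap either (difference 0.57, exact permutation p = 0.1). These ratios were chosen after the values were seen, so their p-values are no support. The adjustment over the 3 pairs compared (Benjamini-Hochberg adjusted p = 0.1 for each) does not cover the other pairs that could have been chosen.

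H1f6 (Hist1h1t), the testis-specific linker histone, had 6.47, 6.44 and 6.53 in UV-donor preparations and 6.48, 6.59 and 6.74 in naive-donor preparations. Its mean lay just above the dim threshold of 6.52 and the groups overlapped. H1f3 (Hist1h1d) was below that threshold and was not tested: its signals were 6.31, 5.97 and 6.06 in UV-donor preparations, against 5.84, 6.17 and 6.04 in naive-donor preparations. H1f4 is named only together with the H2B gene H2bc6. That shared probe set had 8.49, 8.16 and 8.31 in UV-donor and 7.96, 8.11 and 8.13 in naive-donor preparations, groups that did not overlap (difference 0.26, SE 0.087, limma adjusted p = 0.247).

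For H2A, 3 probe sets naming 1 gene were tested and all had a higher mean in the UV-donor group. H2ac4 (Hist1h2ab) had the largest difference of any tested member. Its signals were 8.78, 7.75 and 8.03 in UV-donor preparations, against 7.17, 7.69 and 7.54 in naive-donor preparations. UV-donor replicate 1 stood apart from the other 5 arrays, and the groups did not overlap. The difference was 0.72, or 1.64-fold (95% interval 0.15 to 1.29, limma adjusted p = 0.253), and 0.42 without UV-donor replicate 1.

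H2ac15 (Hist1h2ak) had 12.89, 12.42 and 12.46 in UV-donor preparations, against 12.15, 12.35 and 12.20 in naive-donor preparations. These groups did not overlap either, with a difference of 0.35 (SE 0.12, limma adjusted p = 0.256). The testis histone gene H2ac1 (Hist1h2aa) had 9.25, 8.94 and 8.96 in UV-donor preparations, against 8.82, 8.98 and 8.99 in naive-donor preparations. Its groups overlapped, with a difference of 0.12 (95% interval -0.095 to 0.33), which was -0.040 without both UV-donor replicate 1 and naive-donor replicate 1. H2ac8 (Hist1h2ae) was dim, with signals of 5.77, 5.49 and 5.53 in UV-donor preparations and 5.16, 5.31 and 5.07 in naive-donor preparations. Without the dim filter its adjusted p was 0.188 by limma.

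A pair of probe sets list 16 H2A genes together with the variant gene H2ax and the H3 gene H3c4, so they are counted as mixed. That of 20 genes (probe set 10409220) had 13.74, 13.45 and 13.47 in UV-donor preparations, against 13.25, 13.42 and 13.24 in naive-donor preparations. That of 19 genes (probe set 10494386) had 13.30, 12.90 and 12.93 in UV-donor preparations, against 12.65, 12.88 and 12.73 in naive-donor preparations. Their groups did not overlap, the gap between the closest arrays being small, and the differences were 0.25 and 0.29 (limma adjusted p = 0.258 and 0.279).

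H2B was the class with the most tested probe sets, 16, of which 15 had a higher mean in the UV-donor group. Of these, 13 were higher at an unadjusted p under 0.05 by limma, against 9.41% of all tested probe sets. H2bc3 (Hist1h2bb) had 11.62, 10.89 and 11.03 in UV-donor preparations, against 10.25, 10.83 and 10.70 in naive-donor preparations. The groups did not overlap, and the lowest UV-donor array stood just above the highest naive-donor array. The difference was 0.59 (95% interval 0.12 to 1.06, limma adjusted p = 0.256).

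H2bc14 (Hist1h2bm) had 12.15, 11.51 and 11.80 in UV-donor preparations, against 10.98, 11.44 and 11.42 in naive-donor preparations, a difference of 0.54 (SE 0.18, limma adjusted p = 0.230). H2bc22 (Hist1h2bp) had 6.94, 6.76 and 6.88 in UV-donor preparations, against 6.57, 6.59 and 6.69 in naive-donor preparations. Both genes had groups that did not overlap. The H2bc22 difference was small, 0.24 (95% interval 0.097 to 0.38), with the lowest limma adjusted p of the members, 0.174, which H4c6 shared.

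H2bc21 (Hist2h2be) belongs to the smaller Hist2 cluster. It had 7.77, 7.50 and 7.49 in UV-donor preparations, against 7.34, 7.39 and 7.31 in naive-donor preparations. All UV-donor arrays were above all naive-donor arrays, with a difference of 0.24 (SE 0.079, limma adjusted p = 0.229). H2bc18 (Hist2h2bb), of the same cluster, differed by 0.42 with overlapping groups. H2bc8 (Hist1h2bg) and H2bc9 (Hist1h2bh) differed by 0.32 and 0.33, and the testis gene H2bc1 (Hist1h2ba) by 0.22, all with overlapping groups.

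H2bc4 (Hist1h2bc) was the 1 H2B probe set with a lower mean in the UV-donor group. It had 12.28, 12.25 and 12.17 in UV-donor preparations, against 12.26, 12.34 and 12.32 in naive-donor preparations. The groups overlapped, and the difference was -0.073 (95% interval -0.19 to 0.041, limma adjusted p = 0.518). Its human orthologue is known to make polyadenylated mRNA beside the stem-loop form. The variant gene H2ax, which also makes both forms, was higher in value (0.37). The form of the mRNA is named here for H1f2, H2bc4 and H2ax only, and other members may make both forms. Whether it bears on the direction of a difference was not tested. Within an array, H2bc3 minus H2bc4 averaged -1.05 ± 0.36 in UV-donor and -1.71 ± 0.26 in naive-donor preparations (SD, n = 3 each, exact permutation test, p = 0.1). This pair, too, was chosen after the values were seen, and its p is no support.

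The 7 H2B probe sets that name 14 or 15 genes differed by 0.21 to 0.30. All had an unadjusted p under 0.05 by limma (against 9.41% of all tested as higher). In 1 of the 7 the groups did not overlap, against 12.2% of all tested with UV-donor arrays higher. Probe set 10403980, for example, had 13.68, 13.28 and 13.45 in UV-donor preparations, against 12.99, 13.24 and 13.30 in naive-donor preparations. Probe set 10408070 had 13.62, 13.22 and 13.42 in UV-donor preparations, against 13.06, 13.20 and 13.27 in naive-donor preparations. In both, UV-donor replicate 2 lay below naive-donor replicate 3.

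For H3, 11 probe sets were tested and all had a higher mean in the UV-donor group. The 10 that name the same 12 genes of the Hist1 and Hist2 clusters differed by 0.32 to 0.36. In 8 of the 10 the groups did not overlap, against 12.2% of all tested probe sets with UV-donor arrays higher. Probe set 10404065 had 13.82, 13.40 and 13.44 in UV-donor preparations, against 13.10, 13.38 and 13.15 in naive-donor preparations. UV-donor replicate 1 was the highest, and UV-donor replicate 2 and naive-donor replicate 2 were nearly equal. The difference was 0.34 (95% interval 0.069 to 0.62, limma adjusted p = 0.255).

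Probe set 10494405 had 13.70, 13.30 and 13.35 in UV-donor preparations, against 12.97, 13.28 and 13.06 in naive-donor preparations. Probe set 10403941 had 13.72, 13.33 and 13.34 in UV-donor preparations, against 13.00, 13.29 and 13.06 in naive-donor preparations. Probe set 10408239 had 13.76, 13.34 and 13.38 in UV-donor preparations, against 13.03, 13.32 and 13.09 in naive-donor preparations. The array pattern was alike in these, with no overlap of the groups and a gap of under 0.05 between replicate 2 of each.

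Probe sets for single H3 genes were few. H3c4 (Hist1h3d) had 7.28, 7.18 and 7.14 in UV-donor preparations, against 6.91, 7.15 and 6.995 in naive-donor preparations, with overlapping groups and a difference of 0.18 (SE 0.072, limma adjusted p = 0.293). H3c7 and H3c15 were dim. H3c15 had 6.08, 5.78 and 5.90 in UV-donor preparations and 5.63, 5.72 and 5.53 in naive-donor preparations, and H3c7 had 4.81, 4.37 and 4.39 in UV-donor preparations and 4.32, 4.32 and 4.27 in naive-donor preparations.

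H4 had 11 tested probe sets, all with a higher mean in the UV-donor group. In 9 the groups did not overlap, against 12.2% of all tested probe sets with UV-donor arrays higher. H4c6 (Hist1h4f) had 11.28, 10.94 and 10.996 in UV-donor preparations, against 10.43, 10.78 and 10.69 in naive-donor preparations. The difference was 0.44, or 1.35-fold (95% interval 0.18 to 0.70, limma adjusted p = 0.174), and it stayed between 0.33 and 0.51 with any 1 array left out. H4c8 (Hist1h4h) differed by 0.39 and H4c14 (Hist2h4) by 0.35, with no overlap of the groups in either (limma adjusted p = 0.264 and 0.237).

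H4c4 (Hist1h4d) had 13.81, 13.67 and 13.78 in UV-donor preparations, against 13.57, 13.61 and 13.60 in naive-donor preparations. The groups were separate, though the difference was only 0.16 (SE 0.051, limma adjusted p = 0.220). The 5 tested probe sets that name 11 H4 genes each differed by 0.17 to 0.20, and none of them had overlapping groups (12.2% of all tested had all UV-donor arrays higher). Probe set 10408074, for instance, had 13.73, 13.55 and 13.60 in UV-donor preparations, against 13.43, 13.48 and 13.43 in naive-donor preparations. Probe set 10404067 had 13.74, 13.55 and 13.60 in UV-donor preparations, against 13.43, 13.50 and 13.45 in naive-donor preparations. Probe set 10403957 had 13.62, 13.42 and 13.47 in UV-donor preparations, against 13.26, 13.35 and 13.30 in naive-donor preparations. In each of these the closest arrays of the groups were UV-donor replicate 2 and naive-donor replicate 2.

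H4c3 (Hist1h4c) and H4c9 (Hist1h4i) had overlapping groups, with differences of 0.23 (95% interval -0.058 to 0.51) and 0.084 (-0.14 to 0.30). A probe set that names H4c17 and H4c11 was dim, at 6.91, 6.27 and 6.55 in UV-donor preparations and 5.97, 6.33 and 6.32 in naive-donor preparations.

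With each of the 6 arrays left out in turn, 7 of the 48 members were higher at an unadjusted p under 0.05 by limma in all 6 fits, where the share over all tested probe sets was 4.57%, and 0 were lower in all 6, where it was 1.64%. These were H2bc21, H2bc22, H4c4, H4c6 and 3 of the H4 probe sets naming 11 genes, 2 of which are identical. Of the Hist1 cluster, 17 of 20 tested probe sets that name 1 gene had a higher mean in the UV-donor group (median 0.28), as had 3 of 3 of the Hist2 cluster (median 0.35).

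The Hist3h and Hist4h genes outside the member set were read after the member values were seen. H4f16 had 10.50, 10.14 and 10.30 in UV-donor preparations, against 9.95, 10.06 and 10.11 in naive-donor preparations, with no overlap of the groups (difference 0.28, limma adjusted p = 0.233). The probe set naming H2aw alone had 11.92, 11.64 and 11.73 in UV-donor preparations, against 11.40, 11.62 and 11.40 in naive-donor preparations. Its groups did not overlap either, with a difference of 0.29 (limma adjusted p = 0.208), and a probe set that names H2aw with Trim17 differed by 0.23. H2bu2 and H2bu1-ps differed by 0.19 and 0.26 (limma adjusted p = 0.460 and 0.264).

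**Figure D4:**
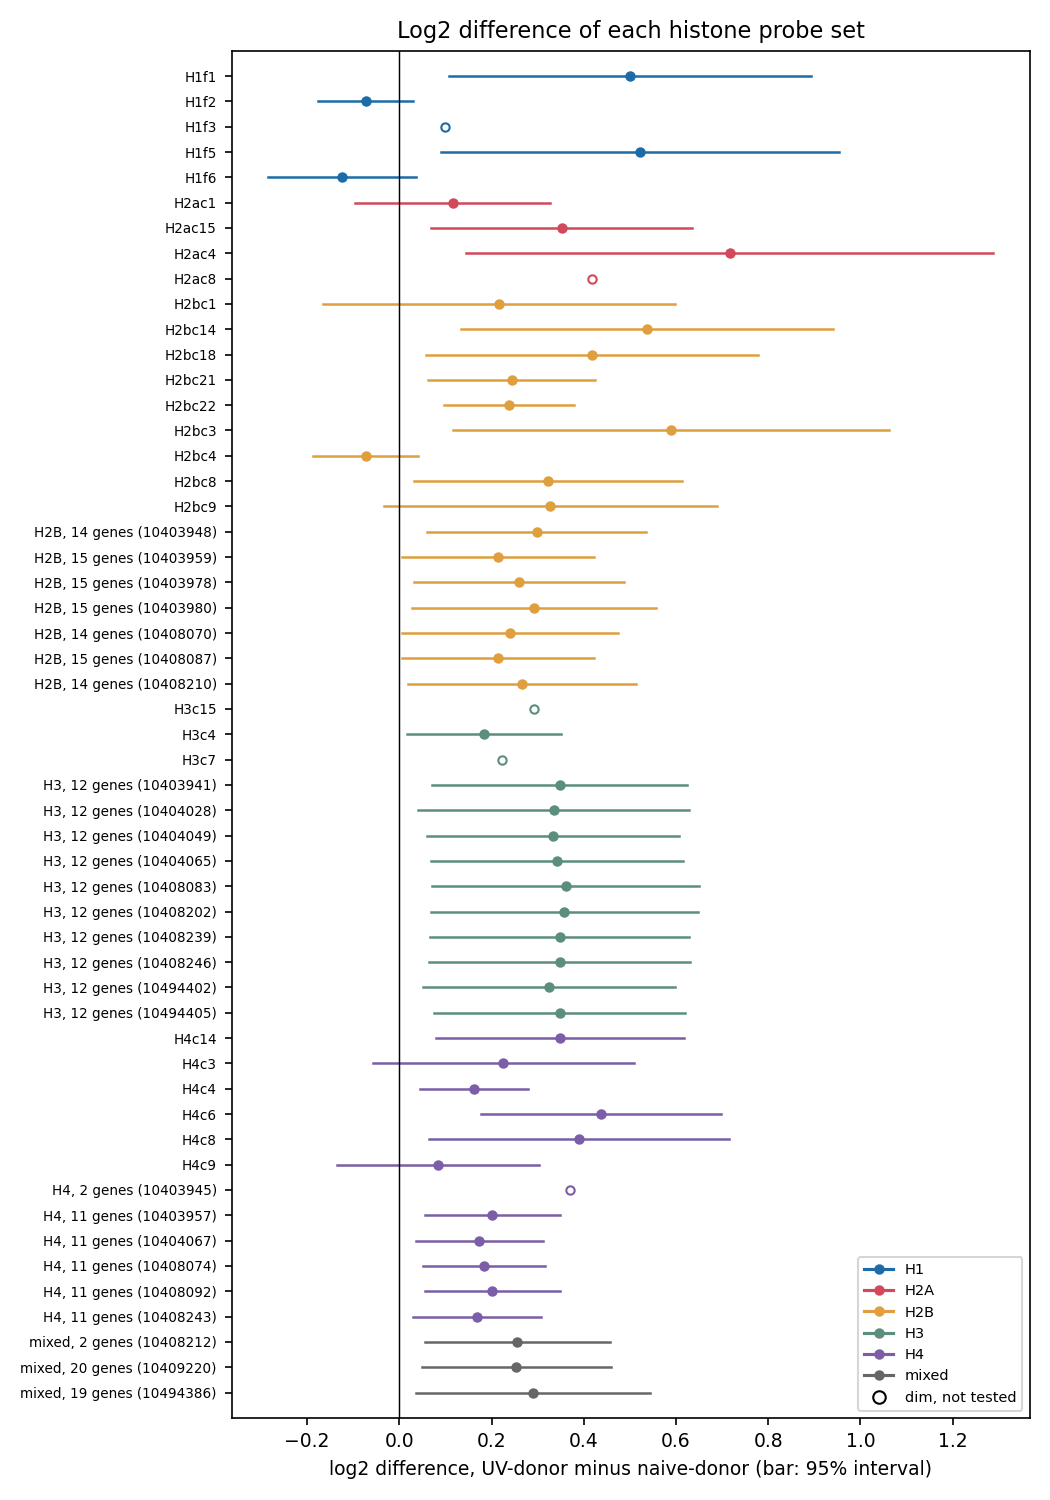
Log2 difference, UV-donor minus naive-donor, of each of the 53 histone probe sets, coloured by class, with limma's 95% interval for the 48 tested. Open circles are the 5 dim probe sets, which have no interval. The points of H1f2, H1f6 and H2bc4 lie below 0 with intervals that include 0.

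Genes of the machinery that makes and handles histone mRNA had smaller median differences than the histones. Of 18 tested genes of histone mRNA 3-prime end processing and decay, 3 passed an unadjusted p of 0.05 as higher and 0 as lower, and the median was 0.060. The shares over all tested probe sets were 9.41% and 5.55%. Slbp, which encodes stem-loop binding protein, had 10.05, 9.98 and 10.04 in UV-donor preparations, against 9.73, 9.88 and 9.82 in naive-donor preparations. Its groups did not overlap (difference 0.21, SE 0.053, limma adjusted p = 0.170). The polyadenylation and histone processing factor Cstf2 differed by 0.18, and Casp8ap2, the FLASH protein of the histone locus body, by 0.23.

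Of 11 tested genes of histone gene transcription, 4 passed an unadjusted p of 0.05 as higher and 0 as lower, with a median of 0.065. The shares over all tested were again 9.41% and 5.55%. Without naive-donor replicate 1 the 4 became 2 (against 6.52% of all tested), as they did without both replicates 1 (against 5.50%). Those of smallest p were Ccna2 (cyclin A2), which differed by 0.56, the kinase gene Cdk2 by 0.25 and the transcription factor E2f1 by 0.20. Hinfp (0.13) and Npat (0.049), named after their values were seen, did not pass. Of 21 tested histone chaperones and importers, 18 had a higher mean and 3 a lower one (median 0.072). By an unadjusted limma p below 0.05, 9 were higher, against 9.41% of all tested, and 0 lower, against 5.55%. Leaving out UV-donor replicate 1 turned the 9 into 5 (against 7.67%). Omitting either naive-donor replicate 1 or 3 gave 4 (against 6.52% and 7.99%). With both replicates 1 omitted, 2 were left (against 5.50%). Asf1b, which hands new H3 and H4 to the chromatin assembly factor CAF-1, differed by 0.68 and the CAF-1 subunits Chaf1a and Chaf1b by 0.27 and 0.19. Mms22l, which acts at stressed replication forks, differed by 0.33. None of these lists held a gene called by limma over all tested probe sets.

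Of the variant histone genes, 4 of 8 tested genes were higher by an unadjusted limma p below 0.05, and 0 lower, with a median of 0.16. Macroh2a2 was the 1 gene with a lower mean (-0.097). H3.3 was not tested, as H3f3a was dim and no probe set named H3f3b alone. The shares over all tested were 9.41% and 5.55%. The 4 became 2 without UV-donor replicate 1 (against 7.67%), where 1 gene was lower, and 2 without naive-donor replicate 1 (against 6.52%). H2ax, whose product is phosphorylated at DNA breaks and whose gene makes both a stem-loop and a polyadenylated mRNA, had 10.28, 9.95 and 9.90 in UV-donor preparations, against 9.59, 9.77 and 9.66 in naive-donor preparations. The groups did not overlap (difference 0.37, SE 0.10, limma adjusted p = 0.181). The linker variant H1f10 differed by 0.26 and H2aj by 0.18.

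Cell cycle genes lay higher in UV-donor than in naive-donor preparations as well. Of 34 tested genes of S phase DNA replication, 27 passed an unadjusted p of 0.05 as higher and 0 as lower, with a median of 0.36. The shares over all tested probe sets were 9.41% and 5.55%. The smallest p-values were those of the replication initiation gene Gins1 (0.49), the primase Prim1 (0.63) and DNA ligase Lig1 (0.44). All 24 tested genes of G2 and M phase were higher at an unadjusted p under 0.05, with a median of 0.53, led by the kinase Aurka (0.53) the spindle midzone gene Prc1 (0.62) and the anaphase activator Cdc20 (0.52). No gene of either list was called by limma (adjusted p from 0.117 upwards).

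On the same scale of medians per array, the S phase list stood at 0.54, 0.25 and 0.25 on UV-donor replicates 1, 2 and 3 and at -0.10, 0.17 and -0.067 on naive-donor replicates 1, 2 and 3. The G2 and M phase list stood at 0.86, 0.40 and 0.37 in the UV-donor group and at -0.15, 0.23 and -0.082 in the naive-donor group. In each of these lists, as in the histones, UV-donor replicate 1 was the highest array and naive-donor replicate 1 the lowest. Without naive-donor replicate 1 alone, 16 of the 34 S phase genes passed (against 6.52% of all tested), and 20 without naive-donor replicate 3 (against 7.99%). With both replicates 1 omitted, 14 of 34 S phase genes and 18 of 24 G2 and M phase genes were higher by an unadjusted limma p below 0.05. That was beside 3 of 48 histone probe sets and 5.50% of all tested. In these bulk preparations a larger share of dividing cells and more histone RNA per cell cannot be told apart.

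Genes of cell cycle exit were split, with 3 of 14 tested passing an unadjusted p of 0.05 as higher and 2 as lower (median 0.046). The shares over all tested probe sets were 9.41% and 5.55%. The lower values were those of the cyclin kinase inhibitor genes Cdkn2b (-0.37) and Cdkn2a (-0.29), while the related Cdkn2d was higher (0.18). The 3 became 1 without UV-donor replicate 1 or naive-donor replicate 1 (against 7.67% and 6.52% of all tested), and 2 without naive-donor replicate 3 (against 7.99%).

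**Figure D5:**
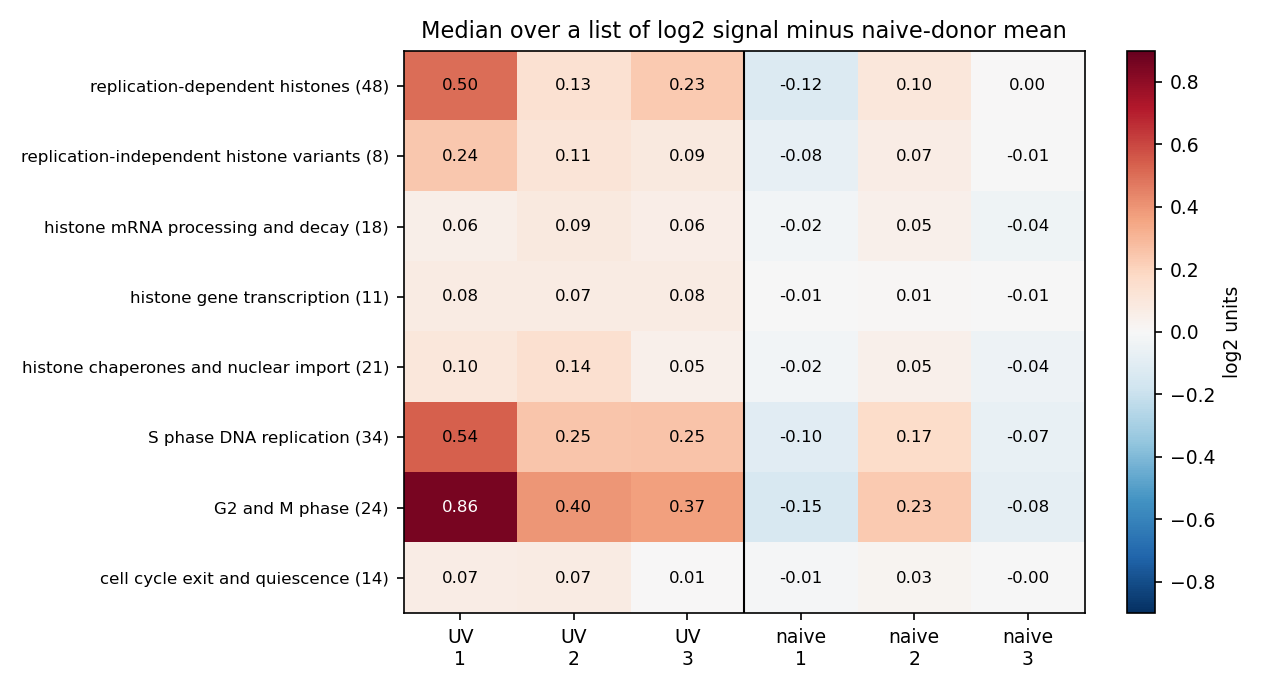
Median over each list of the log2 signal minus the naive-donor mean (cells and colour scale, log2 units), for 6 arrays (columns, UV-donor left of naive-donor) and 8 lists (rows, with the number tested). UV-donor replicate 1 is the highest column for the histones (0.50), the S phase list (0.54) and the G2 and M phase list (0.86).

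Markers of other cells that the CD11c gate could hold also differed. Of 14 tested markers of neutrophils and their precursors 11 had a higher mean in the UV-donor group and 2 were called by limma, Ltf (0.54) and S100a8 (0.77), with Ctsg dim. Over all tested probe sets 0.104% were called higher. The 3 with a lower mean, named after their values were seen, were Prtn3 (-0.12, no overlap of the groups), Elane (-0.035) and Camp (-0.019). The precursor genes Mpo (0.044) and Cebpe (0.095) had small differences with overlapping groups. The mean log2 signal of the list was 8.69 to 8.85 in UV-donor and 8.38 to 8.54 in naive-donor preparations. UV-donor replicate 3 was the highest array of this list by median (0.33) and UV-donor replicate 1 the lowest of its group (0.22). All 7 tested progenitor markers had a higher mean, led by Cd34 (0.76) and Gata2 (0.12), with Cd27, Flt3 and Hoxa9 dim. The list means were 8.31 to 8.34 in UV-donor and 8.10 to 8.17 in naive-donor preparations. The median difference of the progenitor list was only 0.064, far below that of Cd34.

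The dendritic cell markers had means of 11.71 to 11.77 in UV-donor and 11.52 to 11.60 in naive-donor preparations. The median difference of that list was only 0.056, and Itgax was lower (-0.044). Of 9 tested 8 were higher in value and Cd209a was called (0.59), followed by Ciita (0.49). Of 9 tested macrophage markers 6 were higher in value, at means of 10.07 to 10.17 in UV-donor and 9.99 to 10.03 in naive-donor preparations. There C1qb was called (0.63), and Adgre1 differed by 0.51. Cd5l, named after its value was seen, went the other way: it had 9.52, 10.03 and 10.21 in UV-donor preparations, against 10.94, 10.81 and 10.99 in naive-donor preparations. All its UV-donor arrays were below all naive-donor arrays, the largest difference of that list (-0.996, limma adjusted p = 0.0752). The part of these cells in the histone values was not tested.

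The remaining marker lists held no called gene. Eosinophil, mast cell and basophil markers were led by Prg2 (0.75) and Gata1 (-0.17), with 5 of 8 dim. By the median of the 3 tested, UV-donor replicates 1, 2 and 3 stood at 0.41, 0.097 and 0.065. Markers of erythroid cells and platelets were led by Pf4 (0.21) and Ppbp (0.34), and B cell markers by Igll1 (0.095) and Cd79b (0.058), with Cd79a, Ms4a1, Ebf1 and Vpreb1 dim. T and NK cell markers were led by Cd8a (-0.11) and Gzmb (0.22), with Cd3d, Cd3g and Ncr1 dim.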

How the data were processed

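The deposited table gives 1 log2 value per probe set for each of 6 arrays. RMA and the packages oligo and limma are named in the submitters' processing notes, without versions. That the deposited values are log2 follows from their range. The summary level, scan dates and the way RNA was primed are not given in the sources used here. The number of arrays limits the precision.

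Values were used as deposited. Of 35556 probe sets, 21789 named 1 gene in the platform annotation, 1621 several, and 12146 were not listed. Probe sets with 1 or more symbols were tested if their mean over all 6 arrays reached the 30th percentile (6.52), which 16387 did, 48 of the 53 histone members among them. The comparison, UV-donor minus naive-donor, was fitted by lmFit and eBayes of limma 3.58.1 under R 4.3.3 (two-sided), with Benjamini-Hochberg adjustment over all tested probe sets. The procedure was also run on simulated arrays with noise drawn independently for each probe set. The array pattern that the histone probe sets share was not simulated, so that run is no test of their results. List genes were read from the 1-symbol probe set of highest mean, matched through RefSeq symbols and synonyms. All 63 member genes were matched by identifier to RefSeq (GRCm38.p6), which supplied the older names and the promoter windows. Figures were drawn with matplotlib 3.10.9.

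Members with all 6 values are, per class, the 3 of smallest p and the 2 of highest mean, and others were added after their values were seen. The 3 genes of smallest p were named for each process list and the 2 for each marker list. The members and lists were chosen with earlier results of these data known. Alternatives were other filters, probe set choices, normalizations, variance models, the replicate block, a threshold of 0.10 and leaving out each array.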

Additional observations from a re-analysis of the deposited data

How the results depend on the processing

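No histone probe set was called by limma under any alternative run, at an adjusted p under 0.05 or under 0.10, with the lowest adjusted p of a member between 0.110 and 0.459. The count of all probe sets called, 17, was 0 with all probe sets of the table tested, 34 with centred array medians, 55 (49 higher, 6 lower) where the prior was robust and followed intensity, 37 with array weights (34 higher, 3 lower), 0 with the replicate block and 68 at an adjusted p under 0.10. It ran from 0 to 21 with single arrays left out. The smaller counts came without naive-donor replicates 2 and 3 (0 each), naive-donor replicate 1 and UV-donor replicate 3 (1 each) and UV-donor replicate 2 (2).

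The 40 members higher at an unadjusted p under 0.05 became 15 of 22 with 1 probe set per gene (against 9.6% of all tested) and 22 of 30 with like probe sets averaged (against 9.31%). The count was 27 with the replicate block (against 9.04% of all tested), and 7 to 41 with single arrays left out. With UV-donor replicate 1 and naive-donor replicate 1 both left out it was 3 (against 5.50%). The count lower, 0, was 1 with that intensity-dependent prior and 0 to 1 with single arrays left out. Members with groups that do not overlap, 29, were 12 of 22 with 1 probe set per gene and 17 of 30 with like probe sets averaged. In the main fit 12.2% of all tested had UV-donor arrays higher without overlap and 9.16% lower. The shares under these alternatives are not given. The H1 median of 0.21 was 0.50 under the 50th percentile filter and with 1 probe set per gene, where H1f6 is not tested, and 0.070 without both arrays, where the H2B median was 0.098. H2ac1 turned to -0.040 there. Centring raised the median of all tested probe sets to 0.037, and that of the members to 0.33. The number of arrays sets the limit: the 95% interval of H2ac4 spans 0.15 to 1.29. The groups share replicate numbers, but deviations of same-numbered arrays from their group means correlated at -0.14, -0.20 and 0.15, so the replicate block does not stand for a pairing. Averaging like probe sets and leaving out both arrays were chosen after seeing the data.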
